A study of Drosophila melanogaster with 8 samples.

Results

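The vitelline membrane is the innermost layer of the Drosophila eggshell, and 10 genes of this layer and of the hardening of the shell were followed through 8 cDNA libraries of Drosophila melanogaster. The genes were taken by name from the FlyBase annotation. No rule on their measured values was used, but earlier results of these data were known. The members are Vm26Aa, Vm26Ab, Vm26Ac, Vm32E, Vm34Ca, Vml, psd, dec-1, yellow-g and Pxt. They are 10 of 14292 genes in the deposited table and have 20 of its 31089 transcripts. The estimated counts of all transcripts of a gene were summed.

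The study sequenced long reads of cDNA in which the ends of transcripts of the gene qtc had been enriched by RACE, a method that amplifies the ends of a chosen transcript with primers specific to it. Flies of every group were wild type, of the strain Oregon R, with no treatment or engineered allele, and the cultures were kept at 25 °C. The labels' protocol, the same for all 8 libraries, gives an age of 5 to 7 days after hatching. It describes how eyes, heads and testes were taken, but not ovaries or salivary glands. The groups were ovaries, testes, female eyes, male eyes, female heads, male heads, female salivary glands and male salivary glands, with 1 library each. The labels give no number of animals for a library, and heads contain eyes. Because the libraries were amplified for qtc, every level below is a level in these libraries, and in bulk tissue fewer cells of a type cannot be told apart from less RNA per cell.

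Follicle cells, the somatic epithelium around the growing oocyte, secrete the eggshell in layers. Vitelline membrane proteins are laid down first, during mid-oogenesis, and chorion proteins follow outside them. The vitelline membrane proteins are later cross-linked into an insoluble sheet that protects the embryo and carries cues for its axes. In adult flies, follicle cells are found in the ovary.

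The genes lie on 4 chromosome arms in BDGP6: 6 on 2L, 2 on X, 1 on 3L and 1 on 3R. Vm26Ab, Vm26Ac, Vm26Aa and psd stand next to each other on 2L from 5957004 to 5964951, a stretch of 7948 bases that holds no other annotated gene. The gaps between neighbours are 365 bases from Vm26Ab to Vm26Ac, 964 from Vm26Ac to Vm26Aa and 2746 from Vm26Aa to psd. Vm26Ab is on the plus strand and the other 3 are on the minus strand. Vm32E is on 2L from 11171167 to 11171665 and lies within the span of Ca-beta on the same strand, which had 1 count in male eyes and 0 in every other library. Vm34Ca is on 2L from 13411141 to 13411631. Vml is on X from 2275822 to 2277781 and dec-1 on X from 7867161 to 7873222. The gene yellow-g is on 3L from 2269881 to 2272769 and Pxt on 3R from 17719454 to 17722955. Of the 10 genes, 6 have only transcripts of 1 exon (60%, against 15.3% of 13986 annotated protein-coding genes): the Vm genes and Vml. Without an intron, a read of such a gene carries no splice junction. DNA was removed from the RNA, per the labels' protocols.

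The libraries held 88471 (testes) to 152222 (female salivary glands) estimated counts, and 3 counts, the limit that a count of 0 allows, correspond to 19.7 to 33.9 counts per 1000000 (CPM). Intervals below are at 95%. They and the limit cover counting error only, because copies of 1 molecule made by PCR cannot be recognised here. Of 11 matched photoreceptor genes, 11 had counts in each eye and head library, summing to 4.94% of female eyes, 17.8% of male eyes, 8.34% of female heads and 8.87% of male heads. Of 11 male germline genes, 0 had counts in ovaries and 9 in testes (2.79%), and 3 had counts in female heads (0.344%). Larval salivary gland genes took 2.44% of female and 2.09% of male salivary glands, 10 of 10 being above 0 in both, and larval fat body genes took 17.8% of the female and 17.3% of the male gland library. Of 9 matched female germline genes, 6 had counts in ovaries (0.544%), with vas, bcd and gus at 0. The female eye library stood apart: the same germline list took 0.249% of it, with 7 of 9 above 0 and vas and bcd at 0, against 0.000794% of male eyes. The 9 chorion genes took 8.3% of female eyes against 0.0238% of male eyes. Of 13 digestive enzyme genes 11 had counts there (0.498%), with Jon99Ci and gammaTry at 0, against 2 of 13 in male eyes (0.00159%). Yolk protein genes did not set female eyes apart from female heads: they took 0.449% of female eyes and 0.411% of female heads, against 0.00397% of male eyes and 0.000738% of male heads, beside 0.204% of ovaries. The male eye library differed too, with larval salivary gland genes at 0.00905% of female eyes (4 of 10 above 0) and 0.0834% of male eyes (9 of 10), and fat body genes at 0.0258% of female eyes and 1.13% of male eyes. The comparison of the sexes is given with and without the female eye library, but the ranking of genes by pattern only with it. The part of RNA from other tissues in the eye libraries was not tested.

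Counts of the 10 genes came almost wholly from ovaries and female eyes. Of 459 counts over the 8 libraries, ovaries held 321 (69.9%) and female eyes 127 (27.7%), and the other 6 libraries together held 11. The sum was 0.212% of the counts of ovaries (Wilson interval 0.19% to 0.237%), 0.00339% of testes (0.00115% to 0.00997%), 0.0884% of female eyes (0.0743% to 0.105%) and 0 of male eyes, where the limit of 3 counts is a share of 0.00238%. In heads it was 0.00224% for females and 0.000738% for males, and in salivary glands 0.00131% for females and 0.0015% for males. The sum in ovaries was 2.4-fold that in female eyes (exact binomial interval 1.95 to 2.97), 62.6-fold that in testes (21.2 to 305) and 94.6-fold that in female heads (32.1 to 461). The ratio to female eyes depends on the totals, since rRNA-named genes took 23.9% of female eyes and 1.94% of ovaries. Without rRNA-named genes and qtc the sum was 0.217% of ovaries and 0.117% of female eyes, a smaller ratio.

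**Figure D1:**
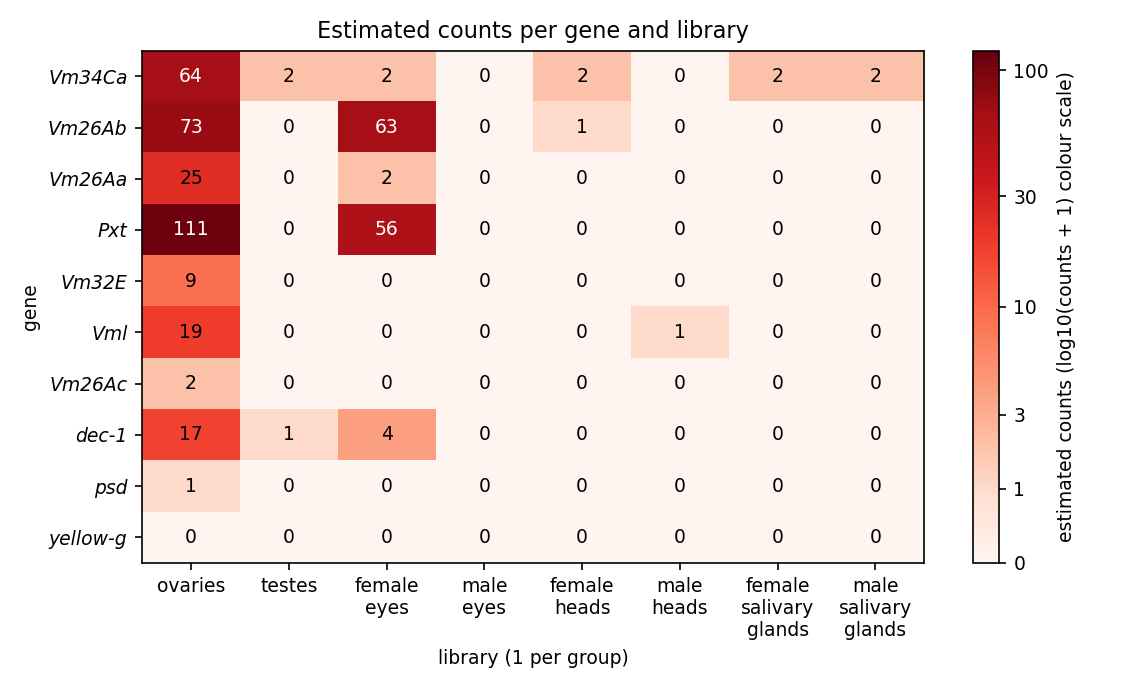
Estimated counts, rounded to whole numbers, of the 10 genes (rows, ordered by length-corrected level in ovaries) in each of the 8 libraries (columns, 1 per group), with the number printed in each cell and colour on a log10(counts + 1) scale. Ovaries hold 9 genes above 0 and female eyes 5, led by Vm26Ab and Pxt, while no other library exceeds 2 counts of any gene.

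**Figure D2:**
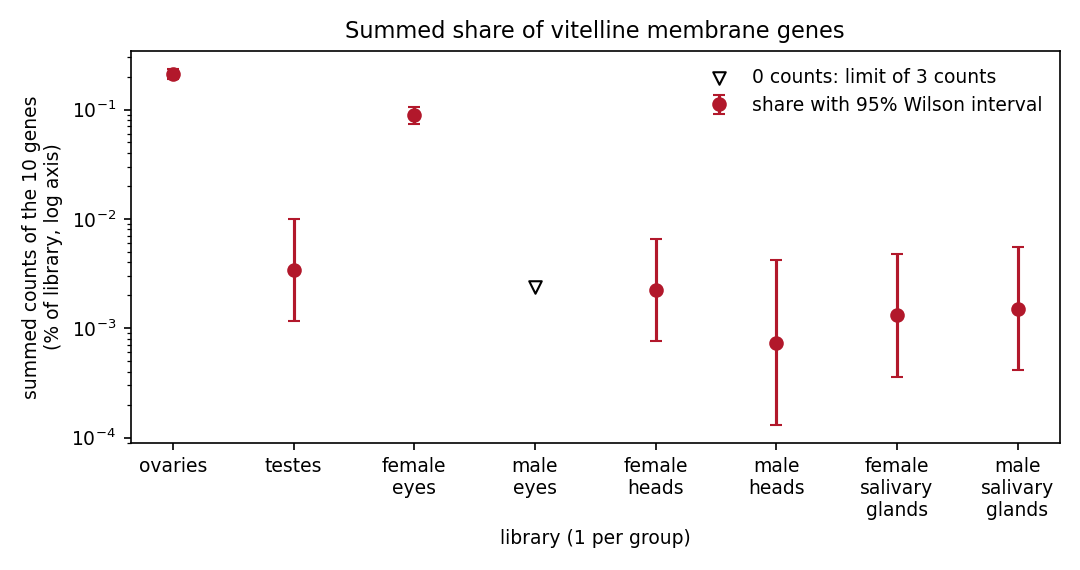
Summed counts of the 10 genes as a percentage of all estimated counts of each library, on a log axis. Points are shares with Wilson intervals, and the open triangle is the limit of 3 counts for male eyes, at 0 counts. Ovaries (0.212%) and female eyes (0.0884%) lie above all other libraries.

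Among the structural proteins of the layer, Vm26Ab and Vm34Ca led in ovaries. Vm26Ab had 73 counts in ovaries, 63 in female eyes and 1 in female heads, and was at 0 in testes, male eyes, male heads and both salivary gland libraries. Its count in female eyes was close to that in ovaries, and no other library passed 1. Vm34Ca had 64 counts in ovaries, 2 each in testes, female eyes, female heads and both salivary gland libraries, and 0 in male eyes and male heads. Ovaries alone were high for this gene, and female eyes were no higher than testes or salivary glands. Vm26Aa had 25 counts in ovaries and 2 in female eyes and was at 0 in the other 6 libraries. Vm32E had 9 counts in ovaries and 0 elsewhere. Vm26Ac, which lies between Vm26Ab and Vm26Aa, had 2 counts in ovaries and 0 elsewhere, so its level is within the limit that a count of 0 allows.

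Vml encodes a vitelline membrane-like protein that has been described as a substrate of the sulfotransferase Pipe in the patterning of the embryo. It had 19 counts in ovaries and 1 in male heads and was at 0 in the other 6 libraries. Its counts were thus high in ovaries alone. The gene psd (palisade), needed for the assembly of the vitelline membrane, had 1 count in ovaries and 0 elsewhere. The gene dec-1 (defective chorion 1, named dec in the annotation used) encodes precursor proteins that follicle cells secrete and that are cleaved in the shell. It had 17 counts in ovaries, 1 in testes, 4 in female eyes and 0 in the other 5 libraries.

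Pxt and yellow-g belong to the hardening of the shell. Pxt, a peroxidase linked to chorion cross-linking and to prostaglandin synthesis in the follicle, had 111 counts in ovaries, 56 in female eyes and 0 in the other 6 libraries. It was the member with the most counts in ovaries. The gene yellow-g, a member of the yellow family needed for a rigid vitelline membrane, was at 0 in all 8 libraries, which allows up to 19.8 CPM in ovaries. At this depth its RNA was not detectable.

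Levels of different genes are given per length and by counts alone, since the transcripts range from 437 bases (Vm32E-RA) to 5696 (dec-RA). In long reads of cDNA, counts need not grow with the length of a transcript. A length correction may then raise short genes too far, and whether it suits these libraries was not tested. In deposited TPM (transcripts per 1000000, corrected for length by the authors), Vm34Ca stood first in ovaries at 1043 TPM (Poisson interval of its counts 800 to 1326), followed by Vm26Ab at 746 (587 to 942). These intervals overlap, so their order is not resolved. Vm26Aa (222, 141 to 323), Pxt (176, 145 to 212) and Vm32E (161, 71.1 to 295) came next and overlap each other, but none reaches Vm26Ab. Vml was at 43.6 TPM (26.2 to 67.8), below Vm32E without overlap on this scale. Vm26Ac (20.7), dec-1 (17.8) and psd (3.18) followed, with intervals of neighbours that overlap. By counts per kilobase of deposited length the order was the same except that Pxt (40.9) stood before Vm26Aa (35.6) and dec-1 (4.06) before Vm26Ac (3.19), and these pairs overlap on both scales. Per kilobase the intervals of Vm32E (18.7, 8.57 to 35.6) and Vml (9.69, 5.84 to 15.1) overlap, so they are not told apart on that scale. By counts alone Pxt, with a transcript of 2716 bases, came first and Vm34Ca, with 491 bases, the third. Among all 14292 genes in ovaries, Vm34Ca ranked 88 and Vm26Ab 126 by deposited TPM, and Pxt ranked 170 by counts.

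**Figure D3:**
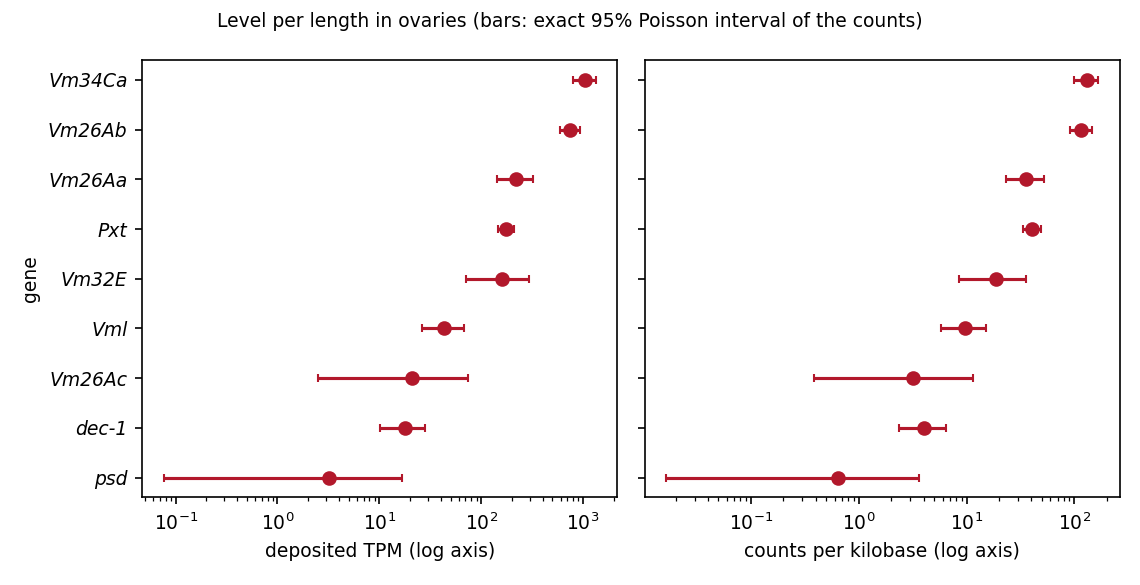
Length-corrected level of the 9 genes with counts in ovaries, as deposited TPM (left) and as counts per kilobase (right), both on log axes, with exact Poisson intervals of the counts in the 1 ovary library. Vm34Ca and Vm26Ab lead on both scales, at 1043 and 746 TPM, and psd is lowest at 3.18 TPM. By counts alone Pxt leads, and whether a length correction suits these long reads was not tested.

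Ovaries were set against each other library to ask where else these genes were read. With 1 library a group there is no test. A gene was called higher at 4-fold or more in CPM, with 10 counts or more in either library and a library at 0 set to 3 counts. A library at 1 or 2 counts kept its count, so a fold over 1 or 2 counts comes out larger than one over 0. Of the 10 genes, 6 reached 10 counts, all of them in ovaries: Vm26Aa, Vm26Ab, Vm34Ca, Vml, dec-1 and Pxt. These 6 entered through the library in which they were high, and Vm26Ac, Vm32E, psd and yellow-g could not be called. Against testes 5 of the 6 were called higher in ovaries, where 24.8% of 1681 genes were called by the same rule. Vml was the exception, at least 3.71-fold higher over 0 counts in the shallower testis library. By deposited TPM Vm26Aa was not called either. Pxt was at least 21.7-fold higher, Vm26Ab at least 14.2-fold and Vm26Aa at least 4.88-fold. Vm34Ca was 18.7-fold higher (4.98 to 158) and dec-1 9.95-fold (1.56 to 416). The call of dec-1 rests on 1 count in testes that was not raised to 3, and its interval reaches below 4-fold. That dec-1 was called and Vml was not therefore comes from the rule and does not tell the 2 genes apart.

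Against the 5 other somatic libraries, female eyes aside, all 6 were called. The background was 34.7% of genes against male eyes, 24.8% against female heads, 25.5% against male heads, 36.1% against female salivary glands and 34.4% against male salivary glands. The smallest of these folds was that of dec-1 over male eyes, at least 4.72-fold. Pxt was at least 30.8-fold higher over male eyes and at least 37.3-fold over female salivary glands. Vm34Ca was 28.3-fold higher than in female heads (7.52 to 239), 32.2-fold than in female salivary glands (8.56 to 272) and 28.2-fold than in male salivary glands (7.48 to 238). The calls of Vml and dec-1 depended on the scaling. Scaled by TMM, a method that aligns the bulk of genes between libraries, both were lost against male eyes and male salivary glands (4 called each), and dec-1 against female heads and female salivary glands (5 called each). By deposited TPM both were lost against male eyes and dec-1 against both head libraries, and without rRNA-named genes and qtc in the totals dec-1 was lost against male eyes. Since the 6 genes passed the count minimum only through ovaries, these counts describe the genes and say nothing more of the list.

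Against female eyes 4 of the 6 were called higher in ovaries, with a background of 20.6% of 1454 genes. These 4 passed the count minimum only through ovaries, while the background genes could pass through either library. Of the 1121 genes with 10 counts or more in ovaries, 28.1% had a female eye level under 25% of that in ovaries. Vm34Ca was 30.4-fold higher in ovaries (8.08 to 257), Vm26Aa 11.9-fold (2.96 to 104), Vml at least 6.02-fold and dec-1 4.04-fold (1.32 to 16.5). Pxt was 1.88-fold higher (1.35 to 2.65), and Vm26Ab 1.1-fold, with an interval of 0.775 to 1.57 that includes no difference. By deposited TPM Vm26Ab was at 746 in ovaries and 848 in female eyes, the reverse order. Scaled by TMM, Vml and dec-1 were no longer called, and dec-1 was also lost by deposited TPM and without rRNA-named genes and qtc in the totals.

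The genes thus did not keep 1 proportion between ovaries and female eyes. Expressed as a percentage of the ovary level, the female eye level was 90.8% for Vm26Ab (exact interval 63.8% to 129%) and 53.1% for Pxt (37.8% to 73.8%), against 3.29% for Vm34Ca (0.39% to 12.4%) and 8.42% for Vm26Aa (0.966% to 33.8%). The intervals of Vm26Ab and Pxt do not overlap those of Vm34Ca and Vm26Aa. Over all 1121 genes with 10 counts or more in ovaries the median was 43.2% (quartiles 22.9% to 84.2%). Vm26Ab stood above 77.5% of these genes and Pxt above 59.3%, while Vm34Ca stood above 4.1% and Vm26Aa above 7.49%. Vm26Ab and Vm26Aa, which have only Vm26Ac between them on 2L, had intervals that do not overlap. Vml was at 0 in female eyes and dec-1 at 24.8% (6.06% to 75.9%), whose interval overlaps those of the other 4.

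**Figure D4:**
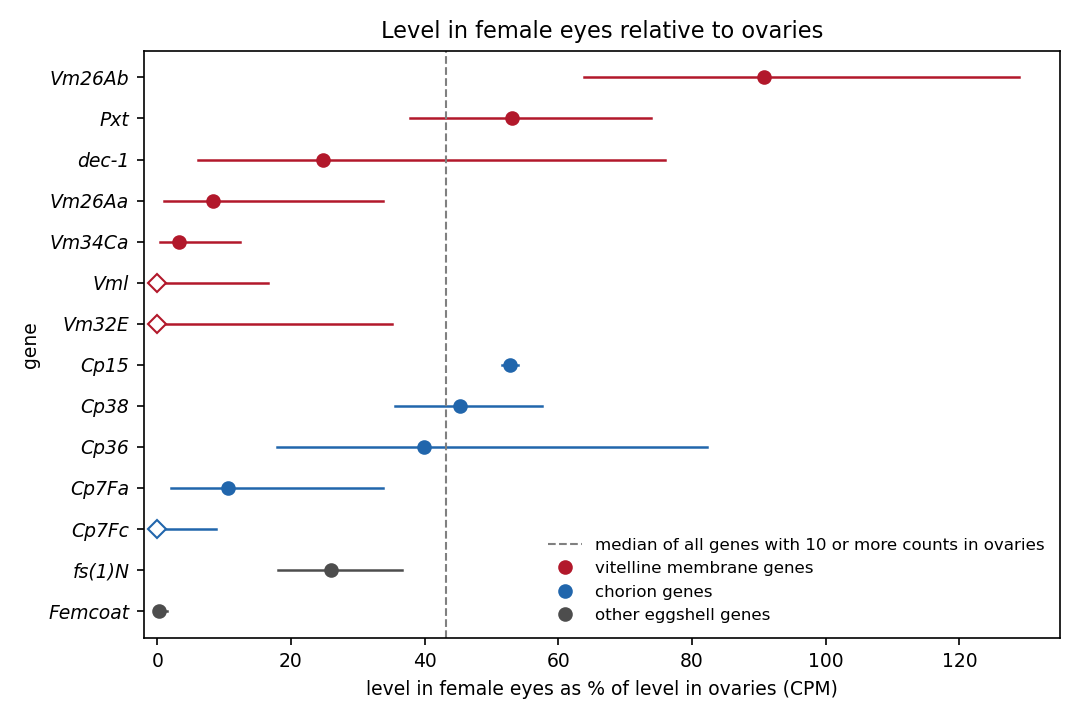
Level in female eyes as a percentage of the level in ovaries (CPM, 1 library each). Shown are vitelline membrane genes with 9 counts or more in ovaries, and chorion and other eggshell genes with 10 or more there. Cp19, with 9 counts in ovaries and 0 in female eyes, is therefore not shown. Bars are exact 95% intervals of the counts, open diamonds mark 0 counts in female eyes with a bar to the limit of 3 counts, and the dashed line is the median of all 1121 genes. Vm26Ab (90.8%) and Pxt (53.1%) lie near or above Cp15 (52.7%), and Vm34Ca (3.29%) lies near Cp7Fa (10.5%).

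The make-up of the sum restates the same counts as shares and is no second support for the split. A share also rises where other genes fall. The share of Vm26Ab rose although its level in female eyes was 90.8% of that in ovaries. Pxt held 34.6% of the 10 genes' counts in ovaries (Wilson interval 29.6% to 39.9%) and 44.1% in female eyes (35.8% to 52.8%), which overlap. Vm26Ab held 22.7% in ovaries (18.5% to 27.6%) and 49.6% in female eyes (41.1% to 58.2%). Vm34Ca held 19.9% in ovaries (15.9% to 24.7%) and 1.57% in female eyes (0.433% to 5.56%), and Vml 5.92% in ovaries (3.82% to 9.06%) and 0 in female eyes, which allows up to 2.36%. By deposited TPM, which weights short transcripts more, Vm34Ca held 42.9% in ovaries and Pxt 7.23%, while Vm26Ab held 30.7% in ovaries and 81.5% in female eyes.

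**Figure D5:**
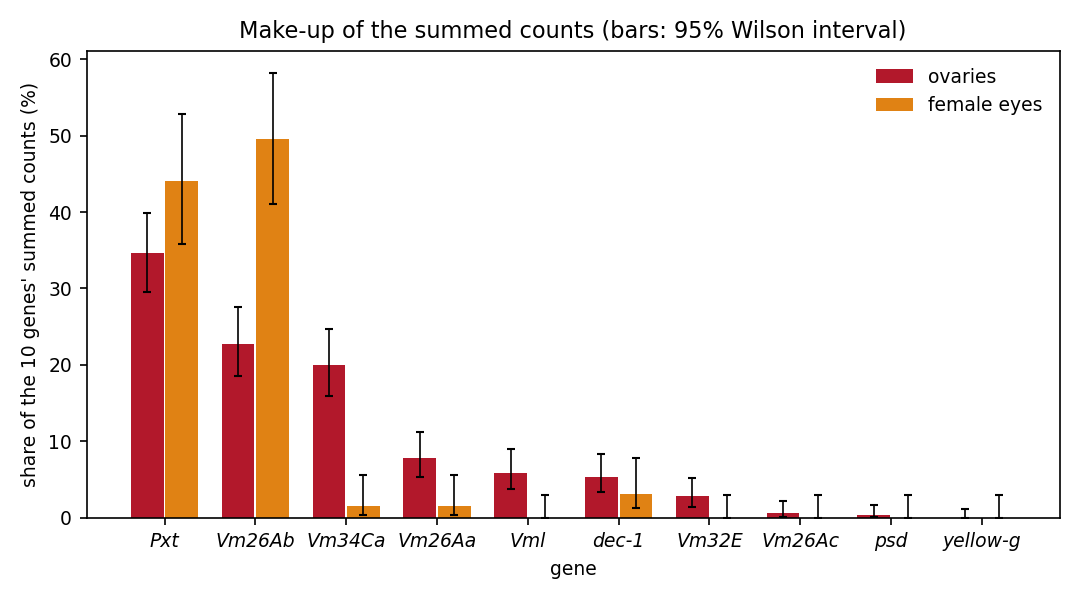
Share of each gene in the summed counts of the 10 genes in ovaries (321 counts) and female eyes (127 counts), with 95% Wilson intervals. Vm26Ab takes 22.7% in ovaries and 49.6% in female eyes, and Vm34Ca 19.9% in ovaries and 1.57% in female eyes.

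The 11 counts in the 6 libraries other than ovaries and female eyes were mostly of Vm34Ca. Vm34Ca held 8 of them (72.7%, Wilson interval 43.4% to 90.3%), spread over testes, female heads and both salivary gland libraries, against 19.9% in ovaries (15.9% to 24.7%). Vm26Ab, Vml and dec-1 had 1 count each. Pxt, the most counted of the genes in ovaries, had 0 of the 11, which allows up to 3.9 CPM over these 6 libraries together, where Vm34Ca was at 10.4 CPM (4.49 to 20.5). The deposited counts of Vm34Ca there were not whole numbers (1.55 in testes and 2.47 in male salivary glands, for example), and each value is at or under the limit of 3 counts. With 11 rounded counts pooled over libraries, a difference in make-up from ovaries is not resolved.

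Females were compared with males within each somatic tissue. Vm26Ab had 63 counts in female eyes and 0 in male eyes, at least 18.4-fold higher in females, and Pxt had 56 in female eyes and 0 in male eyes, at least 16.4-fold higher. These 2 were the only genes of the 10 to reach 10 counts in an eye library, both were called, and 19.5% of 1283 genes were called higher in female eyes by the same rule. Vm26Aa, Vm34Ca and dec-1 had 2, 2 and 4 counts in female eyes and 0 in male eyes. In heads and salivary glands none of the 10 reached 10 counts in either sex, so 0 could be called, beside 6.07% of 1351 genes called higher in female heads and 3.74% of 1017 in female salivary glands. Female heads had 3 counts of the 10 genes in all and male heads 1, and each salivary gland library had 2. The difference between the sexes therefore rests on the female eye library, and without it no gene of the 10 had more than 2 counts in a somatic library. Female heads, which contain eyes, had 1 count of Vm26Ab and 0 of Pxt, so that Vm26Ab was 58.6-fold higher in female eyes (10.1 to 2352) and Pxt at least 17.4-fold. The 2 folds are not comparable, since the 1 count was kept and the 0 was set to 3.

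A sex difference shared by eyes, heads and salivary glands was tested across all genes with a model of tissue and sex in edgeR, in which the error is the deviation of each tissue from the shared difference and not a spread between replicate animals. None of the 10 genes passed its filter on low counts. Of 1316 genes tested 0% passed (0 called by edgeR's quasi-likelihood test with Benjamini-Hochberg adjustment, 34 at an unadjusted p under 0.05, and 2 by DESeq2 and 0 by limma-voom). With no filter 6 of the 10 entered and none was called. Vm26Ab was at a log2 fold change of 7.1 ± 1.89 (SE, edgeR adjusted p = 0.113) and Pxt at 6.88 ± 1.98 (edgeR adjusted p = 0.311). Each SE here was back-calculated from the fold change and the F statistic and is not estimated by edgeR. Both fold changes are set against male libraries at 0 and depend on the prior count. The adjusted p of dec-1 (3.21 ± 3.1), Vm26Aa (2.41 ± 3.72), Vm34Ca (1.59 ± 1.74) and Vml (-1.74 ± 3.49) was 0.999 in the same edgeR fit. Without the female salivary gland library Vm26Ab (edgeR adjusted p = 0.00498) and Pxt (0.0158) were called, and without the male one likewise (0.00791 and 0.0223). They entered those fits through female eyes, where they were high. A tissue left with 1 library no longer bears on the sex difference, so these fits compare the sexes over eyes and heads alone. Without the male eye library the edgeR adjusted p of both was 1, without female heads 0.23, without male heads 0.268, and without female eyes neither passed the filter.

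The split between transcripts of 1 gene is given as the authors estimated it. In ovaries 13 of the 20 transcripts had counts. Vm26Ab-RA and Vm26Ab-RB, which differ in length by 11 bases, had 33.5 and 39.1 estimated counts in ovaries and 31 and 31.8 in female eyes. The longer Vm26Aa-RB had 15.1 in ovaries and Vm26Aa-RA 10.2. Vml was read as Vml-RB in ovaries (19 counts), and the 1 count in male heads was Vml-RA. For dec-1, ovaries had 12.9 estimated counts of dec-RE (3686 bases) and 4.34 of the long dec-RG. Female eyes had 4 of dec-RF (3612 bases) and testes 1 of dec-RE. With so few counts, a difference in dec-1 transcripts between ovaries and female eyes is not resolved.

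Other genes of the eggshell were set beside these. Of 9 chorion genes, which form the outer layers, 5 reached 10 counts in ovaries or testes. All 5 were called higher in ovaries (24.8% of 1681 genes), but all except Cp15 passed the count minimum only through ovaries. Against female eyes 2 of 5 were called higher in ovaries, Cp7Fa and Cp7Fc, beside 20.6% of 1454 genes. Both passed the count minimum only through ovaries. Cp15, whose level in female eyes was 52.7% of that in ovaries (51.6% to 53.9%), and Cp38 (45.3%, 35.5% to 57.6%) were close to Pxt in this respect. The 10 vitelline membrane and hardening genes had 1.34% as many counts as the 9 chorion genes in ovaries and 1.07% as many in female eyes, with Cp15 making up 23566 of the 23913 chorion counts in ovaries. Of 17 other eggshell and egg patterning genes 15 were matched, and 2 reached 10 counts in ovaries or testes. Both passed only through ovaries and were called higher there (24.8% of 1681 genes). They were fs(1)N, which encodes the vitelline membrane protein Nasrat, with 170 counts in ovaries, 42 in female eyes and 1 in testes, and Femcoat, an eggshell gene of follicle cells, with 398 counts in ovaries and 1 each in female eyes and testes. Femcoat thus had a female eye level of 0.264% of that in ovaries (0.00668% to 1.48%), below that of Vm26Ab and Pxt without overlap. The gene yellow-g2, another member of the yellow family, had 5 counts in ovaries and 1 in female eyes.

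Of 341 other genes with 50 counts or more in ovaries, those whose pattern over the 8 libraries was most like the sum of the 10 genes were ranked by Pearson's r of log2(CPM + 10). This is a description, since the libraries differ in tissue and ovaries and female eyes set most of each value. No ranking was made without female eyes. First was zpg, the innexin of the germline, with r = 0.983, 114 counts in ovaries, 72 in female eyes, 1 in testes and 0 elsewhere. It was followed by Cp15 (0.98), Nop60B, a pseudouridine synthase of the nucleolus (0.975), CG7443 (0.967), dhd, a thioredoxin of the female germline (0.962), and fs(1)N (0.956). His2Av (0.956), Cp38 (0.955), asrij (0.952) and nop5 (0.944) completed the 10 nearest, and the median r of the 341 genes was 0.526. A high r does not mean that a gene was confined to ovaries and female eyes. With 436 counts in ovaries and 330 in female eyes, asrij also had from 64 (male salivary glands) to 99 (female salivary glands) in each other library.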

How the data were processed

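Long-read cDNA of 8 tissue and sex groups, 1 library each, was counted by the authors. The deposited table gives, per the file headers, estimated counts (NumReads) and TPM for 31089 transcripts. The deposited TPM are corrected for a length shorter than the length listed, so short genes gain most. A second deposited table gives read counts per library, from 262332 to 334257 in total and 90780 to 156627 after the authors' filter. The submitters' processing notes list minimap2, Salmon, edgeR and the build BDGP6, with no version or role for any of them. No source used here states the read filter.

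Transcripts were matched by ID to the BDGP6 annotation, release 115 (31048 matched, 41 not), and estimated counts were summed per gene and rounded. Of the 10 genes 9 matched by symbol and dec-1 as a RefSeq synonym of dec. CPM used all estimated counts of a library. Shares carry Wilson intervals, ratios exact binomial and levels exact Poisson intervals, at 95% (scipy 1.17.1). The sexes were tested with edgeR 4.0.16 in R 4.3.3, with DESeq2 1.42.0 and limma 3.58.1 as alternatives. Settings were TMM, filterByExpr at 10 counts, robust quasi-likelihood F test, tissue as covariate, 2 residual degrees of freedom and adjusted p threshold 0.05. The fit was also run on simulated data with the same sex difference in every tissue. That simulation does not bear on a difference seen in eyes alone. The tables name no separate cultures or animals. The genes named were all 10 members, the fixed list of other eggshell genes at 10 counts or more (yellow-g2 aside, which was chosen after its values were seen) and the 10 nearest in pattern. Members and lists were chosen with earlier results of these data known. Marker lists covered germline, yolk, photoreceptor, larval salivary gland, fat body and digestive genes. Reads were not aligned again, and counts of overlapping genes are uncertain. No sequence of the genes was used.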

Additional observations from a re-analysis of the deposited data

How the results depend on the processing

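Counts of genes called higher in ovaries kept within 1.5 times of the main count under 37 of 49 alternatives, although TMM, deposited TPM or totals without rRNA-named genes and qtc ended single calls of Vml, dec-1 and Vm26Aa. The 2 genes called between female and male eyes were called in each alternative. In heads and salivary glands no gene could be called under any of them. With a minimum of 30 counts 3 of the 10 genes were called higher in ovaries than in testes, male eyes, heads of either sex and salivary glands of either sex, and 1 than in female eyes, since only 3 genes reach that count. At 8-fold 2 were called against female eyes and 3 against male eyes, female heads and male salivary glands. With TMM over 8 libraries 2 were called against female eyes. The summed share was 0.243% of ovaries and 0.00553% of male salivary glands as deposited TPM, and 0.117% of female eyes once rRNA-named genes and qtc left the total; the other 21 values stayed within the main intervals. By deposited TPM the make-up of the sum moved in 9 of 20 values, with Vm34Ca at 42.9% and Pxt at 7.23% in ovaries and Vm26Ab at 81.5% in female eyes. The test between the sexes called 1 gene with DESeq2 size factors, 1 at a minimum count of 5, 9 with no filter, 2 by DESeq2's Wald test, 0 with library totals and 0 by limma-voom. Leaving out 1 library it called 6 (either head library) to 33 (female salivary glands), with 15 without either eye library and 31 without male salivary glands, each with 1 residual degree of freedom. The cause of these changes was not tested. The labels give no replicate numbers, so no replicate block was fitted, and the test between the sexes compares them within each tissue. Depth limits the 4 genes under 10 counts in ovaries.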

Other observations

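One listed eggshell gene, fon, singled out after its values were seen, was read mostly outside the ovary. It is known from larval blood clotting and muscle attachment. It had 1 count in ovaries, 4 in testes, 7 in female eyes, 23 in male eyes, 74 in female heads, 31 in male heads, 239 in female salivary glands and 227 in male salivary glands.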
